A study of Mus musculus with 22 samples.

Results

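The axon guidance ligands and receptors measured here were the genes whose mouse symbol begins with Sema, Plxn, Epha, Ephb, Efna, Efnb, Robo, Slit (not Slitrk), Ntn or Unc5, a rule on names that uses no measured value, although these families were picked for description with earlier results of these data known. Of 71 such names in the annotation, 69 had a row in the count table, among 23037 genes in all. They were 36 ligands (semaphorins, ephrins, Slits and netrins), 31 receptors (plexins, Eph receptors, Robos and Unc5 receptors) and 2 genes that share a prefix without belonging to a family, Plxna4os1 and Unc50. Efna3 and Unc5cl had no matched transcript and were not analysed here.

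RNA from the hippocampus, cortex and cerebellum of 8 mice was measured by 3′ RNA-seq in 22 libraries, 7 from hippocampus, 8 from cortex and 7 from cerebellum. WT mice (labelled m162, m164, m240 and m244) were compared with circTulp4-deficient (CD) mice (labelled m118, m138, m190 and m242). In CD mice, CRISPR-Cas9 had replaced the AG of the splice acceptor that forms the circular RNA circTulp4 by TC. The repair template also carried 1 further mutation, in the protospacer adjacent motif, to avoid its cleavage by Cas9. The CD line was kept on C57BL/6, descends from 1 mosaic founder and retains residual circTulp4; the WT mice do not carry the edit. Ages and sexes of these mice were not given in the sources used here, no treatment is named, and the hippocampus of mouse m164 and the cerebellum of mouse m138 have no library. The 3 regions thus hold 3 WT and 4 CD, 4 WT and 4 CD, and 4 WT and 3 CD libraries.

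Axon guidance molecules steer growing axons toward or away from their targets, and many are still made in the adult brain, where they act at synapses and in circuit plasticity. Semaphorins act through plexins, with neuropilins as co-receptors for most of the secreted class 3. Ephrins are bound to the membrane and activate Eph receptor tyrosine kinases on the neighbouring cell, A-class ephrins mainly through EphA and B-class ephrins mainly through EphB receptors. Slits bind Robo receptors, and netrins attract through Dcc and repel through Unc5 receptors.

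Totals over 1 transcript per gene lay between 2760846 and 8858937 counts per library. Region markers followed the labels: the summed level of 5 cerebellar genes was 3839 to 4279 cpm (counts per 1000000 counts, scaled by library) in cerebellum and 37.0 to 82.1 cpm elsewhere, and 5 hippocampal genes summed to 1421 to 2058 cpm in hippocampus and 309 to 499 cpm elsewhere. The glial makeup differed as well. Summed oligodendrocyte markers had a median of 4149 cpm in hippocampus, 1638 in cortex and 2336 in cerebellum, and all 5 were higher in hippocampus than in cortex and 3 of 5 than in cerebellum. Microglia markers summed to medians of 178, 165 and 53.9 cpm, with all 4 lower in cerebellum. All 3 oligodendrocyte precursor markers were lower in cerebellum than in hippocampus. Astrocyte markers went both ways between these 2 regions. Gfap was 4.01-fold higher in hippocampus and Aqp4 2.02-fold higher in cerebellum, while Aldh1l1 and Slc1a3 stayed below a 2-fold difference. Choroid plexus markers summed to 8292 cpm in the hippocampus of WT mouse m244, 4199 in CD mouse m190 and 1217 in CD mouse m138, and to between 127 and 552 cpm in the other hippocampi. The hippocampus library labelled CD of mouse m118 held 3.98 cpm of Tulp4-201 beyond Tulp4-209, 16 counts, just above the 2.71 to 3.69 cpm of WT hippocampi and far from the 0.423 to 0.573 cpm of the other CD hippocampi. It goes against its label by that measure. The other libraries of mouse m118 did not, at 0.896 cpm in cortex and 1.55 cpm in cerebellum. The lowest WT values there were 1.45 cpm (4 counts) and 3.12 cpm. The highest CD values were close, at 1.29 and 2.61 cpm. In the paper, linear Tulp4 RNA of the brain was unchanged in CD mice. Whether this measure reports genotype was not tested. Genotype results that use hippocampal libraries are given with and without the hippocampus of mouse m118.

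The EphA receptors Epha5, Epha6 and Epha7 shared 1 order of regions, highest in hippocampus and lowest in cerebellum, and sequences upstream of a listed start of each are shown first, beside those of Epha8, the EphA gene with the opposite regional order, and Efna5, an ephrin-A ligand with a different pattern again. Each run is the 250 bases before 1 listed transcript start in RefSeq on GRCm38.p6, read 5′ to 3′ on the strand of the gene, and capitals mark the GC box (GGGCGG on either strand), a motif bound by Sp-family factors. The intervals are chr5:84417383-84417632 (minus strand) for Epha5, chr16:60605532-60605781 (minus) for Epha6, chr4:28812881-28813130 (plus; the first of 2 listed starts) for Epha7, chr4:136956817-136957066 (minus) for Epha8 and chr17:62881318-62881567 (minus) for Efna5. These starts are not always the outermost ones. The RefSeq gene begins 436 bases farther upstream for Epha5 and 5380 bases for Epha6, so that both windows lie inside the gene, and 65 bases for Epha7 and 43 for Epha8, whose windows lie partly inside it. The window of Efna5 begins at the edge of the gene.
Epha5: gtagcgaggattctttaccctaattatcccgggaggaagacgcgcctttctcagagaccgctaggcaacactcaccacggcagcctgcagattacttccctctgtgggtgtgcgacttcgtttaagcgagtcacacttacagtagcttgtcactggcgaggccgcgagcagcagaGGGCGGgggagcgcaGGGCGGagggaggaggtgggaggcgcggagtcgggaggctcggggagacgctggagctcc
Epha6: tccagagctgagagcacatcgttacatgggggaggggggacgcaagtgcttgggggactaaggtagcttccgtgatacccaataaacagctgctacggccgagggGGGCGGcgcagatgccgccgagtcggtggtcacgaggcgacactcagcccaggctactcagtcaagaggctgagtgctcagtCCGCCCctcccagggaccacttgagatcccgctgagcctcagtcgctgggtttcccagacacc
Epha7: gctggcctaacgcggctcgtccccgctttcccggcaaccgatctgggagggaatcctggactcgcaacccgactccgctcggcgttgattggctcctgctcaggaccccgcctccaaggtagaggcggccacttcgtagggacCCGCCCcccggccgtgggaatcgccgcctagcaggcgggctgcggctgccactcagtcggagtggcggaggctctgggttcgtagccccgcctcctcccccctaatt
Epha8: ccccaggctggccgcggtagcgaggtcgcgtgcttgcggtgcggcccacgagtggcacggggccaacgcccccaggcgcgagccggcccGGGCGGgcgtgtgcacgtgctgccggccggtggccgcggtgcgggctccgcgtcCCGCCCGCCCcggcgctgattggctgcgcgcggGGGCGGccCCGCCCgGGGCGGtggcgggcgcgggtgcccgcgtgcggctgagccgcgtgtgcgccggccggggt
Efna5: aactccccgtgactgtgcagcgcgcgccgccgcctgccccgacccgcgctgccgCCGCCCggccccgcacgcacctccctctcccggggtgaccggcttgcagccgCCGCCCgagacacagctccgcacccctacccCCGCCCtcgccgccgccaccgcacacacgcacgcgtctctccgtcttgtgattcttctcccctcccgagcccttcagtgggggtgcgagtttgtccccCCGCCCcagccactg

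All 5 windows held at least 1 GC box, 2 in Epha5, 2 in Epha6, 1 in Epha7, 6 in Epha8 and 4 in Efna5 (2 of those in Epha8 overlap each other), where 32.9% of the 27025 upstream windows searched held it. Their GC content was 62.4%, 62.8%, 69.2%, 84.0% and 74.8% in that order, against a median of 52.0% over all windows. The E-box (CANNTG, the same on either strand) occurred 4 times in Epha6, once in Epha8 and not in the windows of the other 3 genes, and 66.0% of all windows held it. Neither the cAMP response element (TGACGTCA, 1.6% of windows) nor the TATA box (TATAAA, 13.0% of windows), both searched on either strand, was found in the 5 windows. Of Epha5, Epha6 and Epha7, only the window of Epha6 held an E-box, and that window lies farthest inside its gene. Whether any of these motifs bears on the regional order was not tested.

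To be tested between regions a gene needed 5 cpm in at least 2 of the 22 libraries. This held for 52 members, 26 ligands and 26 receptors, and a member was called when its FDR was below 0.01 and its fold change above 2 in the quasi-likelihood test of edgeR over all 22 libraries. Of the 52, 34 reached 5 cpm in 2 or more libraries of each region, 12 in 2 regions, 5 in 1 region and 1 in none. A filter of this kind lets in members that are high in 1 region alone, and 4 of the 5 that passed through 1 region were called, all but Plxnb3. Of those that passed in 2 regions 11 of 12 were called at least once, and of those that passed in all 3 regions 21 of 34. These counts therefore describe the members and do not set them apart from other genes.

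Between hippocampus and cortex 16 members were called (30.8% of those tested), 8 higher in cortex and 8 higher in hippocampus, where 4.38% and 4.03% of all 11137 genes were called in those directions. Between hippocampus and cerebellum 27 were called (51.9%), 22 higher in hippocampus and 5 higher in cerebellum, against 13.0% and 9.76% of all genes. Between cortex and cerebellum 29 were called (55.8%), 19 higher in cortex and 10 higher in cerebellum, against 12.9% and 9.70% of all genes. The libraries of the 2 regions did not overlap for 15 of the 16, 26 of the 27 and 27 of the 29 called members, as they did not for 78.8%, 90.7% and 87.5% of all called genes and for 14.0%, 35.9% and 32.9% of all genes tested. The median absolute log2 fold change of the members was 0.67, 1.04 and 1.26 in the 3 comparisons, and that of all genes 0.23, 0.43 and 0.43. Less RNA per cell and fewer cells of a type cannot be told apart in these tissue samples. In all, 16 ligands and 20 receptors were called at least once. The share of all genes called in at least 1 of the 3 comparisons was not computed. Counts of this kind, also those by family below, thus have no such share to be set against.

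**Figure D1:**
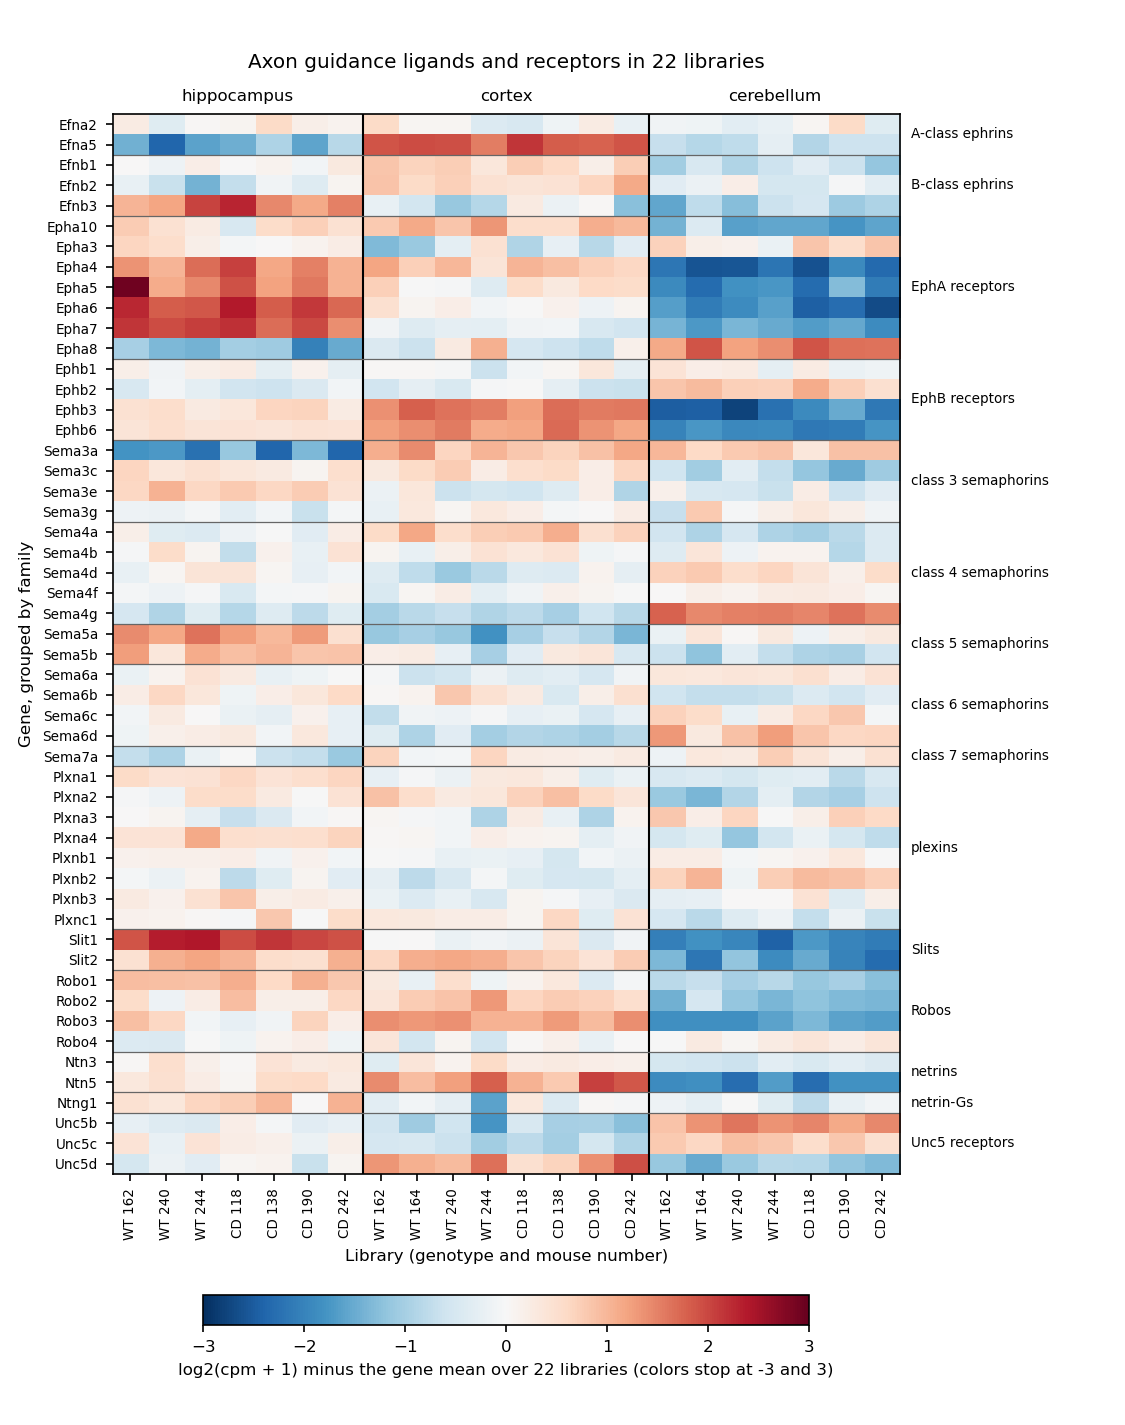
Each row is 1 of the 52 members that passed the filter, grouped by family, and each column 1 of the 22 libraries, grouped by region and then by genotype; color gives log2(cpm + 1) minus the mean of the gene over the 22 libraries. Rows change color at the borders between regions, as in Epha4 to Epha7, Slit1 and Efna5, while WT and CD columns of a region look alike.

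Of the 7 EphA receptors that could be tested, 5 were called higher in hippocampus than in cerebellum and 1 lower. Of all genes, 13.0% and 9.76% were called in those directions. All 7 were called at least once over the 3 comparisons. Epha7, a receptor that also occurs in truncated forms, had 97.1 to 169 cpm in hippocampus (median 146), 23.9 to 34.0 cpm in cortex (median 29.8) and 9.11 to 13.4 cpm in cerebellum (median 11.8). No library of 1 region reached into the range of another. Epha7 was 4.81-fold higher in hippocampus than in cortex (SE 0.11 on the log2 scale, FDR 1.77e-14), 12.7-fold higher in hippocampus than in cerebellum (FDR 3.01e-18) and 2.63-fold higher in cortex than in cerebellum (FDR 4.32e-10).

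Epha6 followed the same order, with 94.1 to 149 cpm in hippocampus (median 104), 25.2 to 39.1 cpm in cortex (median 29.6) and 3.49 to 8.31 cpm in cerebellum (median 5.76). The hippocampal level exceeded the cortical one 3.81-fold (SE 0.11, FDR 4.49e-13) and the cerebellar one 20.7-fold (SE 0.14, FDR 7.58e-19). An exon of Epha6 overlaps Gm9017 on the opposite strand, and since the sources do not state whether the counting used strand, reads of the 2 cannot be told apart.

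Epha5, a receptor for ephrin-A5, had 19.7 to 75.3 cpm in hippocampus (median 26.3), 6.77 to 15.5 cpm in cortex (median 12.6) and 1.02 to 3.13 cpm in cerebellum (median 1.67). The highest hippocampal value belonged to WT mouse m162, and the other 6 hippocampi lay at 19.7 to 36.9 cpm, still above every cortex library. It was 2.79-fold higher in hippocampus than in cortex (SE 0.23, FDR 1.24e-05) and 18.8-fold higher than in cerebellum (SE 0.31, FDR 9.28e-12).

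Epha4, which binds ephrins of both classes, had 98.8 to 202 cpm in hippocampus (median 125), 63.3 to 111 cpm in cortex (median 85.4) and 6.96 to 12 cpm in cerebellum (median 8.73). Hippocampus and cortex overlapped, and their difference of 1.51-fold was below the fold threshold. Both exceeded the cerebellum, 14.8-fold (FDR 9.95e-16) and 9.80-fold (FDR 1.71e-14). Epha10, a receptor without kinase activity, was likewise low in cerebellum, with a median of 1.02 cpm against 7.24 in hippocampus and 10.2 in cortex (5.72-fold and 8.12-fold higher, FDR 1.88e-08 and 3.76e-10); 1 cerebellar library, at 3.49 cpm, entered the hippocampal range.

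Epha8 ran the other way. It was at 0 to 1.04 cpm in hippocampus (median 0.597, at most 8 counts in a library), 1.40 to 7.56 cpm in cortex (median 1.95) and 7.89 to 14.1 cpm in cerebellum (median 11.6). The 3 ranges did not overlap, and the level in cerebellum was 17.1-fold that in hippocampus (SE 0.36, FDR 3.34e-10) and 4.08-fold that in cortex (SE 0.29, FDR 1.01e-06). Epha3 was low throughout, with medians of 3.09, 1.46 and 4.24 cpm in hippocampus, cortex and cerebellum. It was called lower in cortex than in both other regions (2.23-fold and 2.69-fold, FDR 0.00383 and 0.000215), but its libraries overlapped, and with the mouse as a replicate block the first FDR rose to 0.015, past the threshold.

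Among EphB receptors, Ephb3 had 47.8 to 71.2 cpm in cortex (median 61.2), 23.7 to 31.9 cpm in hippocampus (median 27.5) and 2.04 to 6.26 cpm in cerebellum (median 3.39). The order cortex, hippocampus, cerebellum held without overlap, with folds of 2.19 between the first and second (FDR 2.68e-09) and 7.59 between the second and the cerebellum (FDR 1.18e-15). Ephb6, a receptor whose kinase domain is inactive, had medians of 570, 307 and 60.4 cpm in cortex, hippocampus and cerebellum, none of whose ranges overlapped. It was 9.93-fold higher in cortex than in cerebellum (SE 0.10, FDR 1.21e-19), the smallest FDR of any member. Ephb2, known from excitatory synapses, was instead higher in cerebellum, at 8.48 to 13.5 cpm (median 10.1) against 3.37 to 5.39 cpm in hippocampus and 3.25 to 5.65 cpm in cortex (2.46-fold and 2.52-fold, FDR 2.67e-07 and 1.31e-07). Ephb1 was not called in any comparison, with medians of 329, 297 and 343 cpm in hippocampus, cortex and cerebellum and folds of at most 1.09.

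Among the ephrins, Efna5, which codes for ephrin-A5, was the ligand with the widest gap between hippocampus and cortex. It had 137 to 211 cpm in cortex (median 175), 8.24 to 25.8 cpm in hippocampus (median 16.2) and 25 to 39 cpm in cerebellum (median 28.8). Every cortex library thus exceeded every library of the other regions. It was 10.7-fold higher in cortex than in hippocampus (SE 0.15, FDR 3.35e-15) and 5.95-fold higher than in cerebellum (SE 0.14, FDR 1.90e-14). Its order thus differed from that of Epha5, Epha6 and Epha7, whose hippocampal libraries were the highest. Efna2, the other ephrin-A gene that passed the filter, had medians of 3.83, 3.41 and 3.14 cpm and no call.

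The 3 ephrin-B genes had 3 different profiles. Efnb3, found in myelin and in neurons, had 33.2 to 82.2 cpm in hippocampus (median 45.2) against 6.12 to 19.4 cpm in cortex and 4.71 to 10.9 cpm in cerebellum, and was 4.17-fold (SE 0.23, FDR 6.27e-08) and 6.18-fold higher (SE 0.25, FDR 1.07e-09). Oligodendrocyte markers were likewise highest in hippocampus. They summed to 3121 to 4990 cpm there, 1131 to 2450 in cortex and 1851 to 2647 in cerebellum. Between cortex and cerebellum neither Efnb3 (medians 12.01 and 7.98 cpm, 1.48-fold, FDR 0.0595) nor any of the 5 markers was called. Their directions there were opposite. Efnb3 was lower in cerebellum, and all 5 markers were higher, from 1.07-fold (Mog, FDR 0.638) to 1.83-fold (Cnp, FDR 4.8e-07). The part of these markers in the result was not tested. Efnb2 was highest in cortex, at 58.9 to 99.2 cpm (median 69.0) against 16.3 to 47.3 cpm in hippocampus (median 34.1; 2.23-fold, FDR 2.26e-06), and its 1.90-fold difference from cerebellum stayed below the fold threshold. Efnb1 was called between cortex and cerebellum, with medians of 9.91 and 3.32 cpm (3.06-fold, FDR 1.64e-08), and its hippocampal median of 5.82 cpm lay between them.

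**Figure D2:**
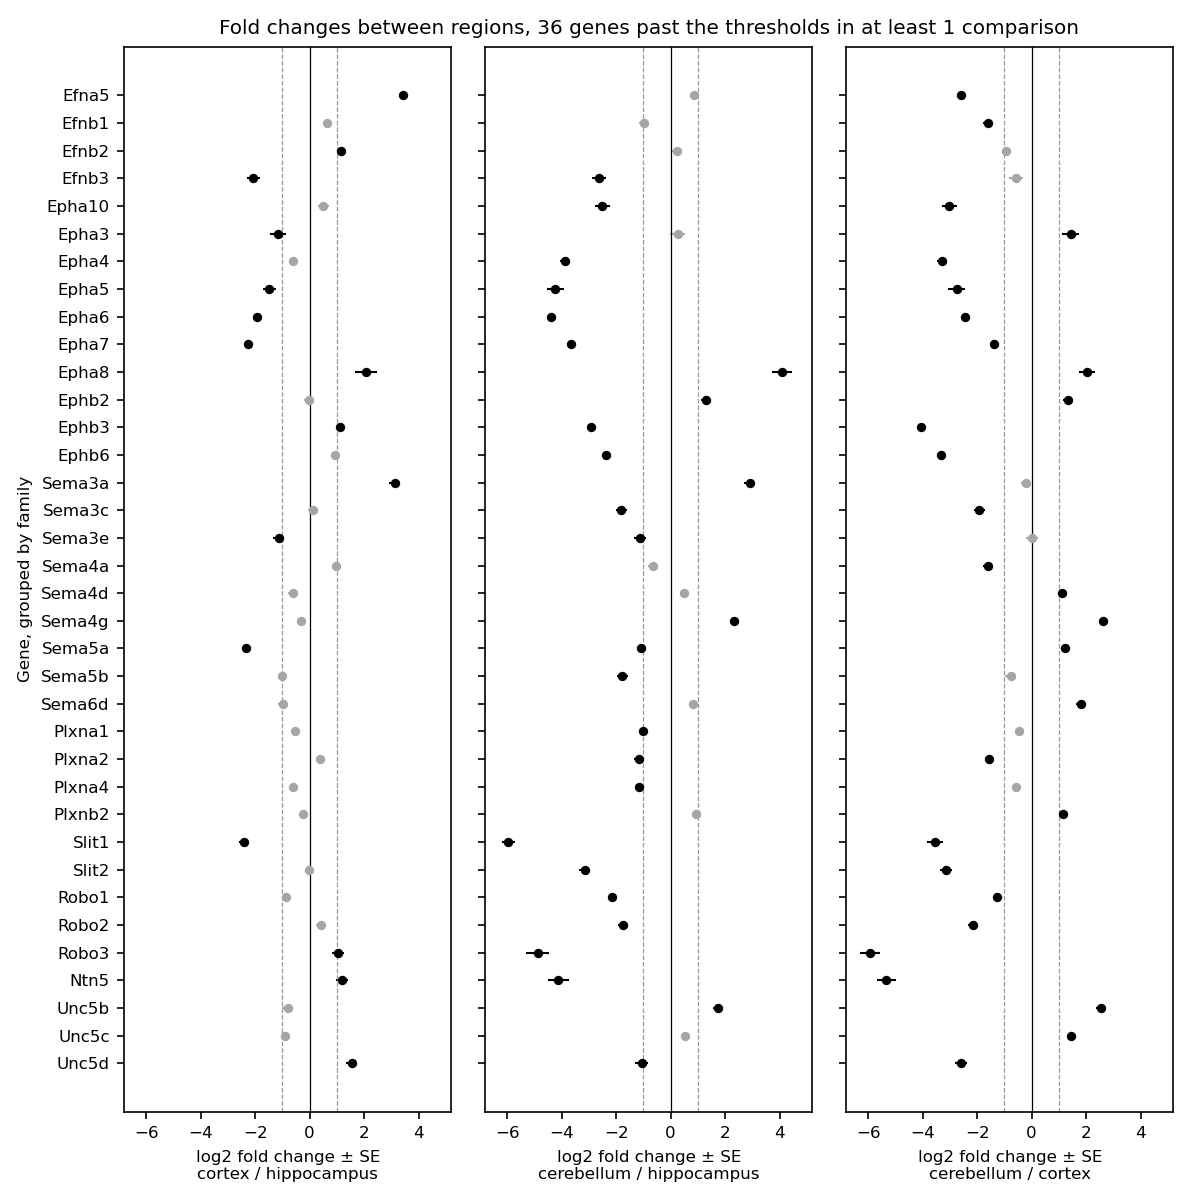
For the 36 members called in at least 1 comparison, points give the log2 fold change between 2 regions and bars its SE (edgeR, 22 libraries); black points passed the thresholds, grey points did not, and dashed lines mark a 2-fold change. Values left of 0 are higher in hippocampus (first and second panels) or cortex (last panel), and in the second panel Slit1 lies farthest to the left and Epha8 farthest to the right.

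Of the secreted class 3 semaphorins, Sema3a, a repellent ligand also found in perineuronal nets, was low in 1 region. It had 2.09 to 6.32 cpm in hippocampus (median 3.65), 24.4 to 42.5 cpm in cortex (median 30.2) and 19.5 to 31.1 cpm in cerebellum (median 28.1). All hippocampal libraries lay below all others, by 8.72-fold against cortex (SE 0.20, FDR 2.82e-12) and 7.5-fold against cerebellum (SE 0.20, FDR 2.98e-12), while cortex and cerebellum overlapped. Sema3e, a ligand of plexin-D1, was 2.19-fold and 2.18-fold higher in hippocampus (9.51 to 15 cpm, median 11) than in cortex and cerebellum (medians 4.66 and 4.54 cpm; FDR 7.59e-05 and 5.16e-05). Sema3c had medians of 5.31 and 6.23 cpm in hippocampus and cortex and 1.40 cpm in cerebellum, 3.5-fold and 3.78-fold lower (FDR 3.07e-08 and 7.72e-09). Sema3g, a gene of endothelial cells, was not called (medians 18.8, 22.9 and 23.6 cpm), and neither were the 3 endothelial markers that could be tested.

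Of the membrane-bound semaphorins, Sema5a was called in all 3 comparisons. Its level was 117 to 261 cpm in hippocampus (median 202), 23.1 to 51.4 cpm in cortex (median 39.8) and 73.2 to 109 cpm in cerebellum (median 95.6). The 3 regions did not overlap, and hippocampus was 5.05-fold above cortex (SE 0.14, FDR 9.00e-13) and 2.14-fold above cerebellum (FDR 1.64e-07). Without the 3 hippocampi that had over 1000 cpm of choroid plexus markers, the second difference fell just below the fold threshold, to -0.98 on the log2 scale (cerebellum minus hippocampus). Sema5b was 3.41-fold higher in hippocampus (median 31.4 cpm) than in cerebellum (median 9.49 cpm; FDR 1.49e-08), and its difference from cortex sat on the fold threshold (2.00-fold).

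Sema4g was the semaphorin that stood out in cerebellum, at 22.1 to 28.4 cpm (median 23.6) against 3.58 to 5.68 cpm in hippocampus and 3.25 to 4.73 cpm in cortex. It was 5.03-fold higher there than in hippocampus (SE 0.13, FDR 4.85e-14) and 6.23-fold higher than in cortex (SE 0.13, FDR 3.87e-15). Sema6d and Sema4d were called between cerebellum and cortex alone, 3.52-fold and 2.17-fold higher in cerebellum, with medians of 14.1 against 3.51 cpm and 11.7 against 5.59 cpm. Sema4a was 3.06-fold higher in cortex (median 20.02 cpm) than in cerebellum (median 6.26 cpm). Its 1.94-fold difference between cortex and hippocampus did not reach the fold threshold, although those libraries did not overlap. Sema6a, Sema6b, Sema6c, Sema7a, Sema4b and Sema4f were not called.

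Of the 8 plexins tested, the receptors of semaphorins, 4 were called. Plxna2 was lower in cerebellum (median 6.69 cpm) than in hippocampus (16.0 cpm, 2.24-fold, FDR 3.16e-06) and cortex (19.8 cpm, 2.92-fold, FDR 2.00e-08). Plxna4, a receptor for Sema3a with neuropilin, was 2.25-fold higher in hippocampus (156 to 259 cpm, median 167) than in cerebellum (52.4 to 103 cpm, median 81.8; FDR 1.09e-08). Plxna1, also a partner of neuropilins, differed 2.01-fold between the same regions (medians 135 and 68.1 cpm), on the edge of the threshold. Plxnb2, a receptor for class 4 semaphorins, was higher in cerebellum (41.1 to 92.6 cpm, median 76.6) than in cortex (25.7 to 43.4 cpm, median 33.5; 2.25-fold, FDR 6.74e-08), with a small overlap. No plexin was called between hippocampus and cortex. Plxna3, Plxnb1, Plxnb3 and Plxnc1 were not called.

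The 5 Slits and Robos that were called were all lower in cerebellum than in both other regions. Robo4, tested but not called, had its highest median there. Of all genes, 13.0% were called lower in cerebellum than in hippocampus and 12.9% lower than in cortex. Slit1, a repellent ligand made by neurons, had 18.8 to 27.5 cpm in hippocampus (median 20.7), 2.98 to 5.99 cpm in cortex (median 3.99) and at most 3 counts in any cerebellar library. Over the 7 cerebellar libraries it had 14 counts in all, against 1040 in hippocampus and 183 in cortex. Scaled by library size, the summed hippocampal count was 67.2 times the cerebellar one (95% exact interval for counting error 39.9 to 123.4). Hippocampus exceeded cortex 5.36-fold (SE 0.16, FDR 6.31e-12). Slit2 did not differ in this way between hippocampus and cortex, with ranges of 12.7 to 21.5 and 12.3 to 21.1 cpm, and was 8.94-fold and 8.78-fold lower in cerebellum (0.998 to 3.34 cpm; FDR 2.11e-12 and 1.84e-12).

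Robo3, a receptor known from commissural axons, had 5.96 to 8.51 cpm in cortex (median 7.72), 2.02 to 5.74 cpm in hippocampus (median 3.12) and 5 counts over all cerebellar libraries, at most 2 in any. The cortical sum was 63.4 times the cerebellar one, with a counting interval of 26.9 to 196.7. The 2.06-fold difference between cortex and hippocampus (FDR 0.000383) lay on the threshold. Robo1 and Robo2, the main Slit receptors of the forebrain, had cerebellar medians of 3.53 and 3.87 cpm. Robo1 was 4.44-fold higher in hippocampus (median 15.9 cpm, FDR 9.61e-12) and 2.41-fold higher in cortex (median 8.14 cpm, FDR 1.83e-07), and Robo2 was 3.37-fold higher in hippocampus (median 13.4 cpm, FDR 1.94e-08) and 4.46-fold higher in cortex (median 19.3 cpm, FDR 2.74e-10). Robo1 thus had its highest median in hippocampus and Robo2 in cortex, although neither difference between those regions was called. That of Robo1 (1.84-fold, FDR 1.15e-05) missed the fold threshold alone, and that of Robo2 (1.32-fold, FDR 0.0568) missed both thresholds. Robo4, the endothelial member, was not called (medians 5.31, 5.95 and 7.12 cpm).

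Of the netrins, Ntn5 had 7.34 to 18.9 cpm in cortex (median 11.2), 4.05 to 6.34 cpm in hippocampus (median 5.04) and 12 counts over all cerebellar libraries, at most 3 in any. The cortical sum was 43.2 times the cerebellar one (counting interval 24.5 to 84.1), and cortex exceeded hippocampus 2.31-fold (SE 0.22, FDR 9.67e-05). Up to 407 bases of its exons overlap Sec1 on the opposite strand, with the limit given for Epha6. Ntn3 and Ntng1, a membrane-anchored netrin, were not called. Ntn1, the classic floor plate attractant, did not pass the filter (1.84 to 3.14 cpm in cerebellum and 0.172 to 1.59 cpm elsewhere).

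The Unc5 receptors, which mediate repulsion by netrins, split by region. Unc5b was highest in cerebellum, at 12.4 to 21.7 cpm (median 18) against 4.47 to 7.59 cpm in hippocampus and 1.19 to 4.33 cpm in cortex, 3.34-fold (SE 0.17, FDR 3.14e-09) and 5.83-fold (SE 0.18, FDR 4.87e-12) higher. Unc5c, long known from cerebellar development, had 70.8 to 94.6 cpm in cerebellum (median 87.3), 43.5 to 67.4 cpm in hippocampus (median 56.9) and 23.9 to 35.8 cpm in cortex (median 30.5). The 3 ranges did not overlap, and the 2.71-fold difference between cerebellum and cortex passed the thresholds (FDR 1.99e-11). Unc5d, a receptor that also binds Flrt proteins, was highest in cortex, at 16.0 to 45.7 cpm (median 27.2) against 6.79 to 12.2 cpm in hippocampus and 3.31 to 5.93 cpm in cerebellum, 2.91-fold (FDR 7.37e-07) and 6.09-fold (FDR 1.32e-10) higher.

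**Figure D3:**
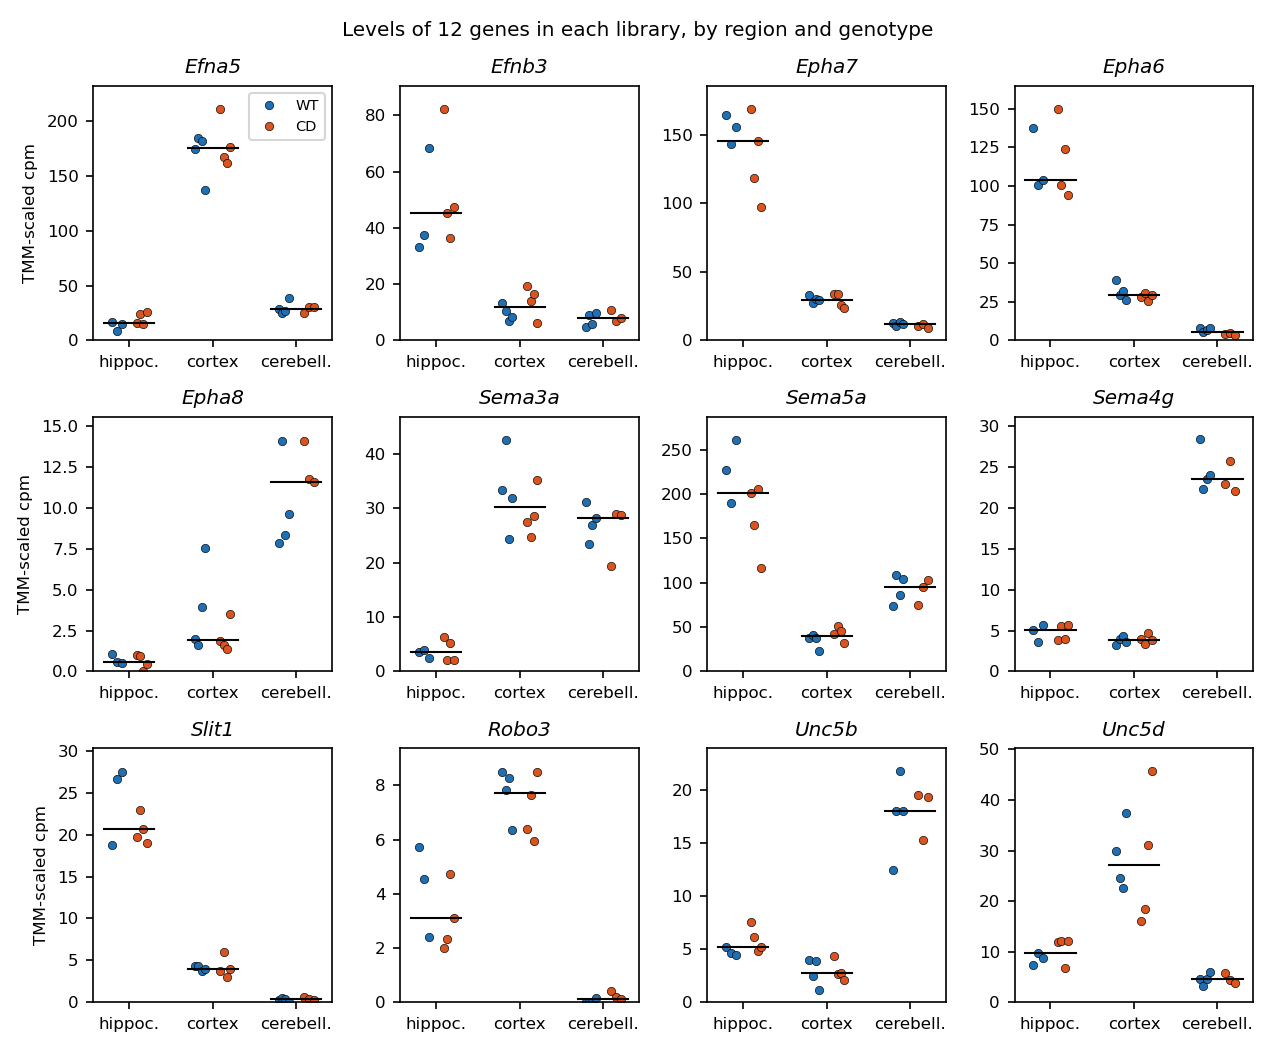
TMM-scaled cpm of 12 members in every library, by region, with WT libraries in blue, CD libraries in orange and the median of the region as a line; each vertical axis starts at 0. Efna5 is high in cortex alone, Sema3a is low in hippocampus alone, and Sema4g and Unc5b are high in cerebellum, in libraries of both genotypes.

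The 16 tested members that were never called were Efna2, Ephb1, Ntn3, Ntng1, Plxna3, Plxnb1, Plxnb3, Plxnc1, Robo4, Sema3g, Sema4b, Sema4f, Sema6a, Sema6b, Sema6c and Sema7a. Some had a low FDR below the fold threshold, such as Sema6b, 1.86-fold higher in hippocampus than in cerebellum (FDR 2.62e-06). The 17 members below the filter had at most 6.78 cpm in any library. Among them were Epha1 and Epha2, at no more than 4 and 3 counts in a library, and Sema3b, which was at 6.70 cpm in the choroid plexus-rich hippocampus of WT mouse m244. Exons of 17 of the 69 members overlap those of another gene, among them the called Epha6, Epha10, Ntn5, Plxna1, Plxna4, Unc5c (opposite strand) and Sema4a (same strand), whose reads could not be separated from those of the other gene.

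The wider pathway was described by 55 genes for co-receptors, intracellular effectors and other cues, of which 54 had a row and 50 passed the filter. Of these, 7 were called between hippocampus and cortex, 23 between hippocampus and cerebellum and 19 between cortex and cerebellum, where 8.41%, 22.8% and 22.6% of all genes were called. Nrp1 and Nrp2, the co-receptors of class 3 semaphorins, had hippocampal medians of 73.4 and 55.3 cpm, 3.64-fold and 4.09-fold above cortex (FDR 1.30e-09 and 3.16e-10). Dcc, the attractive netrin receptor, had medians of 42.3, 18.8 and 3.87 cpm in hippocampus, cortex and cerebellum and was called in all 3 comparisons. Chn2, which inactivates Rac, and Trio, an exchange factor that activates it, were higher in cerebellum, with medians of 273 and 41.3 cpm against 11.7 and 1.19 cpm in hippocampus. Chn1, the effector of Epha4, was 7.85-fold higher in hippocampus than in cerebellum (FDR 2.84e-20).

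The second question was whether these genes differed in CD mice, in which circTulp4 is reduced but not absent. No member passed the thresholds between CD and WT libraries in hippocampus (0 of 48 tested), cortex (0 of 45) or cerebellum (0 of 40), and 0% of all genes did. DESeq2 called no member either, and 2, 1 and 0 genes in all. At an unadjusted p below 0.05 there were 1, 0 and 2 members, where 4.22%, 3.30% and 4.55% of all genes had such a p. The 95% interval of the CD to WT ratio lay within 2-fold in both directions for 43, 41 and 37 members, so that differences of that size were outside it, and it reached beyond for 5, 4 and 3. Those were Efna5, Efnb2, Epha5, Sema3a and Sema4b in hippocampus, Efnb3, Ntng1, Sema4d and Sema6d in cortex, and Epha3, Epha6 and Sema4b in cerebellum. Without the hippocampus library labelled CD of mouse m118, 0 of 46 members and 0% of all genes passed in hippocampus, and 4 members (Efna5, Efnb2, Epha7 and Sema5a) had an unadjusted p below 0.05, as did 4.42% of all genes. The interval then lay within 2-fold for 42 members and reached beyond for Efna5, Efnb2, Epha5 and Robo4.

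Values below are given in order of mouse number within each genotype. In cerebellum, Epha6 was at 4.30, 4.97 and 3.49 cpm in CD libraries and at 8.20, 5.76, 6.87 and 8.31 cpm in WT libraries. The difference was -0.79 on the log2 scale (SE 0.25, unadjusted p = 0.00776 and FDR 0.981 in edgeR). These are 21 to 54 counts per library. Sema6b was at 137, 123 and 144 cpm in CD and 120, 110, 111 and 115 cpm in WT cerebella (0.24, SE 0.10, FDR 0.981). Epha3 was at 5.53, 4.24 and 5.49 cpm in CD and 4.86, 3.14, 2.97 and 2.20 cpm in WT cerebella, which overlapped (0.62, SE 0.31, FDR 0.981).

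In hippocampus, Efna5 was at 16.2, 24.1, 14.9 and 25.8 cpm in CD and 16.7, 8.24 and 14.6 cpm in WT libraries (0.65, SE 0.26, FDR 0.997), and the groups overlapped. Sema5a was at 202, 165, 205 and 117 cpm in CD and 227, 190 and 261 cpm in WT hippocampi (-0.39, SE 0.18). Efnb2 was at 26.8, 41.5, 34.1 and 47.3 cpm in CD and 38.6, 28.1 and 16.3 cpm in WT hippocampi (0.45, SE 0.26). Summed cortex markers were highest in the hippocampi of CD mice m138 and m242 (332 and 347 cpm, against 208 to 283 cpm in the other 5). The same 2 libraries held the highest Efna5 and Efnb2, both high in cortex, and the lowest Sema5a, which is low in cortex, and the lowest Efnb2 was in mouse m244, which had the fewest cortex markers. The part of these markers in the 3 differences was not tested. The hippocampus library labelled CD of mouse m118 had Tulp4 transcripts near those of WT hippocampi by the measure given above. Without that library, the 3 differences were 0.74, -0.47 and 0.57, each with an FDR of 0.998.

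In cortex, Sema4d was at 5.65, 5.54, 8.41 and 6.25 cpm in CD and 5.72, 4.14, 3.05 and 3.98 cpm in WT libraries (0.58, SE 0.27). Slit2 was at 16.8, 14.8, 12.3 and 15.7 cpm in CD and 14.4, 19.99, 21.1 and 20.3 cpm in WT cortices (-0.34, SE 0.17). Epha5 was at 13.7, 11.4, 14.4 and 13.7 cpm in CD and 15.5, 8.96, 8.93 and 6.77 cpm in WT cortices (0.35, SE 0.23). Each of the 3 had overlapping groups and an FDR of 0.9998 in edgeR. In the mean of the 3 regions, fitted in limma with mouse as random effect, no member of 52 and 0% of all genes passed, and Epha6, the first by p, had a difference of -0.33 on the log2 scale and an FDR of 0.9997 (-0.36 and 0.9994 without the hippocampus of mouse m118, where again no member and no gene passed). The difference between genotypes did not vary between regions for any member at an FDR below 0.05 (0% of all genes), with 4 members, Ephb3, Epha6, Sema4d and Efna5, at an unadjusted p below 0.05, as had 3.91% of all genes, and a smallest FDR of 0.999 in edgeR. Without the hippocampus of mouse m118 these 4 and Sema5a had such a p, against 3.64% of all genes, and no gene had an FDR below 0.05.

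**Figure D4:**
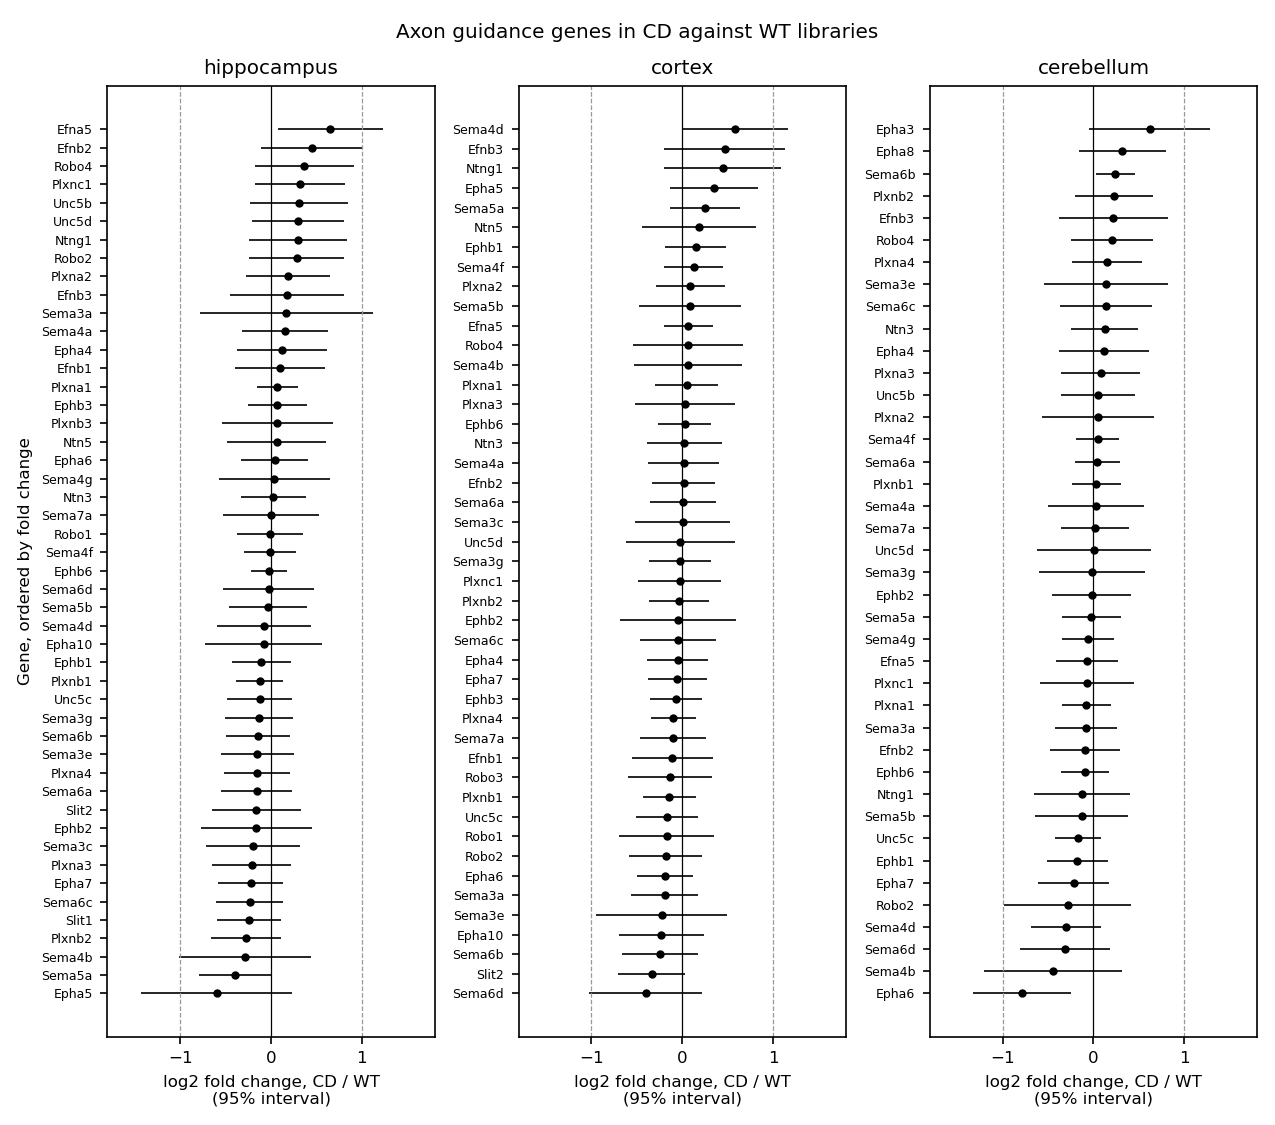
Log2 fold change of CD over WT libraries for each member tested in hippocampus (48), cortex (45) and cerebellum (40), with its 95% interval; dashed lines mark 2-fold changes in either direction. Most intervals cross 0, and those that reach beyond 2-fold belong to 5, 4 and 3 members in the 3 regions.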

How the data were processed

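Cortex, hippocampus and cerebellum RNA of WT and CD mice was made into CelSeq2 3′ libraries. The authors aligned reads to mm10 with STAR and deposited raw counts per RefSeq transcript from the End Sequence Analysis Toolkit; tool versions, strand use and collapsing of molecular identifiers were not given in the sources used here. Transcripts were matched to gene symbols without version (80.6% of 85964), and the transcript with the highest total stood for each gene; each region has at least 3 mice a genotype, all 22 libraries were used, and the published description counts 1 fewer a group. Members and gene lists were chosen with earlier results of these data known.

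Genes with 5 cpm in at least 2 libraries were scaled by TMM and tested with edgeR 4.0.16 (quasi-likelihood), limma 3.58.1 (voom, averaged genotypes) and DESeq2 1.42.0 in R 4.3.3 and Python 3.11.15. Regions were compared over 22 libraries with 6 group means (mean of genotypes), genotypes within a region. FDR is the Benjamini-Hochberg adjusted p over all genes tested, SE is on the log2 scale, and cpm values are TMM-scaled. Named were all members past the thresholds and, for genotypes, the 3 with the smallest p in each region. The tests were tested on simulated data. The counts of replicate pairs differed by 5.68 to 17.5 times the counting variance, so no library repeated another. Depth was 2760846 to 8858937 counts, and intervals for counts cover counting error only.

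Mouse numbers in the labels pair regions of the same animal; the deviations of same-mouse libraries from their group means correlated weakly (mean r 0.083 between hippocampus and cortex, 0.047 between hippocampus and cerebellum, -0.0037 between cortex and cerebellum). Genotypes cannot be paired. Alternatives were DESeq2, no filter, a replicate block, summed transcripts, each library left out, WT libraries alone, 1 fit for all regions, and, chosen after seeing the data, leaving out hippocampi rich in choroid plexus RNA and, in the fits over regions, the hippocampus of mouse m118.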

Additional observations from a re-analysis of the deposited data

Results flagged for a closer look

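Within groups of 4 libraries, 148 combinations of 37 named genes and groups were searched for a library far from the other 3, which chance gives in about 1 in 20, and 5 were found. In WT cerebellum, Epha10 was at 3.49 cpm in mouse m164 and at 0.929 to 1.22 cpm in the others. Robo3 was at 0.17 cpm (1 count) in WT mouse m244 and at 0 in the other WT cerebella. In CD hippocampus, Plxna4 was at 187 cpm in mouse m242 against 164.4 to 168.0 cpm, and Unc5d at 6.79 cpm in mouse m190 against 11.9 to 12.2 cpm. In WT cortex, Slit2 was at 14.4 cpm in mouse m162 against 19.99 to 21.1 cpm.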

How the results depend on the processing

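Counts of called members stayed within 1.5 times under every alternative run. With the mouse as a replicate block, 16, 27 and 29 members were called in the 3 region comparisons, and 15, 27 and 29 of these were called without it; between hippocampus and cortex the block ended the call of Epha3 and added Sema5b (-1.01), and it changed no other call. WT libraries alone called 13, 27 and 29, of which 12, 25 and 28 were called over all libraries; they added Sema4a, Efna5 (1.21, hippocampus to cerebellum) and Sema6b (-1.10 from hippocampus and -1.07 from cortex to cerebellum). Leaving out 1 library gave 16 to 19, 26 to 29 and 29 to 30. Of 72 region calls, 65 held under every alternative in which they were tested (Epha3 was below the filter in WT libraries alone, and Epha3, Sema3c and Efnb1 with transcripts summed). The exceptions were Epha3, Robo3, Ntn5 and Sema3e between hippocampus and cortex, and Plxna1, Sema5a and Unc5d between hippocampus and cerebellum. Leaving out 1 library ended 4 of these. Robo3, hippocampus to cortex, was then 0.98 on the log2 scale without CD hippocampus m118 or m138, 0.91 without WT hippocampus m244 and 0.99 without CD cortex m242. Epha3 had an FDR of 0.0104 without WT hippocampus m162, 0.0115 without WT cortex m162 and 0.011 without WT cortex m164. Plxna1, hippocampus to cerebellum, was -0.98 without WT hippocampus m162, -0.99 without CD hippocampus m242 or WT cerebellum m240, -0.998 without WT cerebellum m162 and -0.94 without CD cerebellum m190. Unc5d was -0.997 without CD cerebellum m242. Members close to a 2-fold difference (Sema5b, Sema6d, Sema4a, Sema7a, Ntng1, Efnb1, Efnb2 and Plxnb2) were called in some of the other fits, the farthest with the filter being Sema5b at -1.12 between hippocampus and cortex without WT hippocampus m240. Without the filter, Plxnd1, Ntn1, Ntng2, Slit3 and Unc5a were called as well. No direction reversed, and no genotype alternative called a member, although without the filter 6, 3 and 10 genes outside the families were called. With at most 3 counts in any cerebellar library, the levels of Slit1, Robo3 and Ntn5 there are limited by depth.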
